A study of Mus musculus with 14 samples.

Results

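Duodenal mucosa of mice killed 3 h after the beginning of a high-fat meal (HF3h) was compared with that of mice killed 3 h after the beginning of a low-fat meal (LF3h), on Affymetrix MOE 430 v2.0 arrays. The comparison was chosen by the sample titles alone and used 4 of the 14 arrays of the series, 2 for HF3h and 2 for LF3h, without the fasting pool. The HF meal held 60% of its calories as fat, 20% as carbohydrate and 20% as protein at 5.24 kcal/g, and the LF meal 10% as fat, 70% as carbohydrate and 20% as protein at 3.85 kcal/g. Mice ate ad libitum until they were killed, and the paper reports that the LF groups ate more sucrose and more glucose polymer. Fat, carbohydrate and the amount and kind of sugar eaten therefore changed together. A difference between the meals cannot be assigned to any of these. All mice were 12-week-old C57BL6 males kept for 2 weeks on the LF diet and fasted for 12 h before the meal. The other pools were mice killed fasting, and 30 min or 1 h after the beginning of either meal. Each pool held the mucosal RNA of 20 mice, and the 2 arrays of a pool were technical replicates of it. Errors and p-values below therefore cover the array and not the mouse.

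The duodenum absorbs both fuels of a mixed meal. Fatty acids enter the enterocyte, are rebuilt into triglyceride in the endoplasmic reticulum, and leave in chylomicrons or wait in cytosolic lipid droplets, and some of them activate the nuclear receptor PPARα, which turns on genes of fatty acid oxidation and of droplet coating. Sugars enter through apical carriers of glucose and fructose, and the transcription factor ChREBP (gene Mlxipl) responds to them by turning on genes of fructose use and lipogenesis.

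The values were log2 intensities after the authors' Robust Multiarray Analysis (RMA), tested with limma over 45037 probe sets and adjusted by Benjamini-Hochberg. A gene was represented by the probe set with the highest mean, and a gene that passed had an adjusted p under 0.05. At least a 2-fold difference with an adjusted p under 0.05 was seen for 80 probe sets higher at HF3h (0.178% of those tested) and 8 lower (0.0178%). At the adjusted p alone 388 were higher (0.862%) and 430 lower (0.955%). This split depended on the scaling, with 436 higher and 341 lower after a further quantile normalization, and 323 higher and 543 lower after centring each array on its median. It also turned when the 4 arrays were fitted alone, to 203 higher and 131 lower. At the gene level 217 of 18193 genes were higher (1.19%) and 184 lower (1.01%), and 88 of the higher and 21 of the lower genes still passed in each of the 4 refits that left out 1 of the 4 arrays. A gene that is given below with its difference and passed did so in each of these refits too, unless its paragraph states a lower number. The median difference was 0.01 over all probe sets and -0.06 over the 13281 with a mean log2 value of at least 6. The arrays of a pool correlated at 0.9966 for HF3h and 0.9971 for LF3h, and the median SD was 0.0727 and 0.072. The beta-actin 3' minus 5' difference, a measure of RNA integrity, was 0.429 at HF3h and 0.398 at LF3h, against 0.470 to 0.525 in the 5 other pools. Log2 values under 6 lie in the dim range of these arrays, where background compresses a difference, so such genes are given by their log2 values without a fold.

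**Figure D1:**
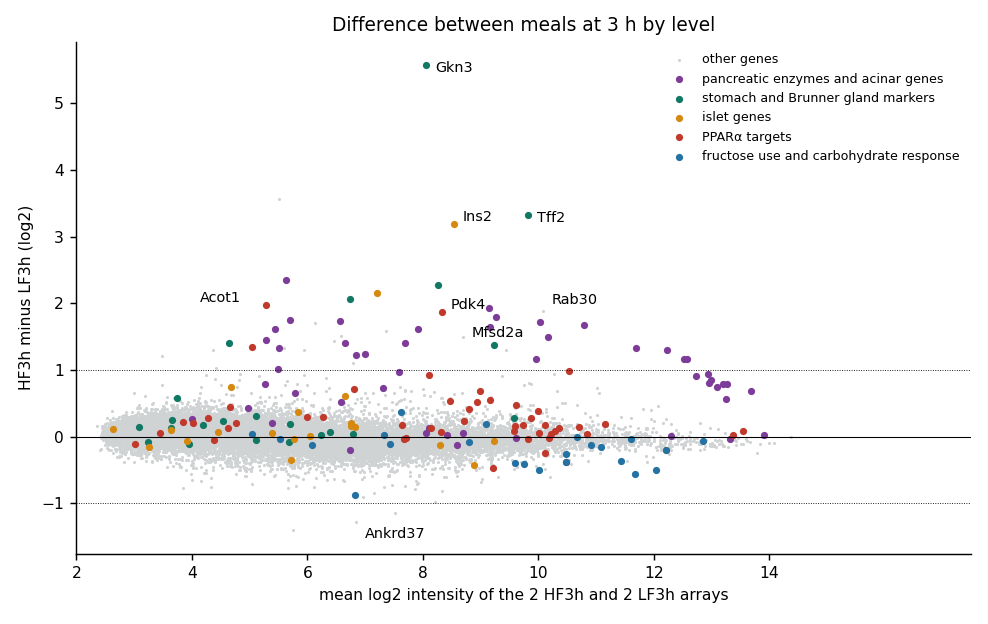
Difference HF3h minus LF3h (log2) against the mean log2 intensity of the 4 arrays, 1 point per gene for 18193 genes, with 5 groups of genes in colour and dotted lines at 2-fold. Points far above 0 were mostly genes of pancreas and stomach (Gkn3 at 5.57, Tff2 at 3.32, Ins2 at 3.19) with PPARα targets such as Acot1 at 1.97 among them, and few points lay below the lower line (Ankrd37 at -1.27).

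The 80 probe sets higher at HF3h named 54 genes, and 37 of these belonged to lists of pancreatic, stomach or adipocyte genes that are described further down. The other 17 genes were 2310057J18Rik, Acot1, Rab30, Pdk4, Klk1b5, Phlda1, Nucb2, Mfsd2a, Scd1, G0s2, Wfdc18, Amy1, Ereg, Errfi1, Chka, Hamp2 and A2ml1. Amy1, an amylase, Klk1b5, a kallikrein, and Hamp2, a hepcidin, are also made by the pancreas. The 8 lower probe sets named Igkv6-20, Ankrd37, Peli1 and another kappa light chain segment, and the other 4 had no single gene in the annotation used.

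PPARα targets were the first group compared. Of the 49 measured PPARα targets, 13 rose at HF3h and 2 fell, with a median difference of 0.18 against 0.01 over all genes, where 1.19% rose and 1.01% fell. Of the 13 rises, 7 passed in each of the 4 refits.

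Acot1, a cytosolic thioesterase that frees fatty acids from acyl-CoA, read 6.28 and 6.27 on the HF3h arrays, against 4.30 and 4.30 on the LF3h arrays, a log2 difference of 1.97 ± 0.12 (SE, limma adjusted p = 4.9e-07). Both HF3h arrays lay above both LF3h arrays, and the fasting mean of 4.51 lay near LF3h. Acot2, the mitochondrial form, read 8.74 and 8.38 at HF3h, against 7.61 and 7.68 at LF3h (log2 difference 0.92, limma adjusted p = 0.00082), but its other probe set differed by 0.25. Acot4, the peroxisomal form, read 7.11 and 7.22 at HF3h, against 6.56 and 6.35 at LF3h (0.71, limma adjusted p = 0.0031, passed in 3 of 4 refits), with 0.40 at its other probe set. The groups did not overlap for any of these paralogs, and how far their probe sets share signal was not tested.

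Pdk4, the kinase that switches off pyruvate dehydrogenase and so spares glucose, read 9.34 and 9.18 at HF3h, against 7.38 and 7.41 at LF3h. This was a 3.65-fold difference (log2 1.87 ± 0.08, SE, limma adjusted p = 2.2e-08). The HF3h values stood close to the fasting mean of 9.66, and the LF3h values well below it. Angptl4, a secreted inhibitor of lipoprotein lipase, had the same order, with 8.75 and 8.73 at HF3h, against 8.20 and 8.21 at LF3h (log2 difference 0.53, limma adjusted p = 0.0022) and a fasting mean of 8.93, while its other probe set differed by 0.17.

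Plin2, the coat protein of cytosolic lipid droplets, read 11.06 and 10.97 at HF3h, against 10.02 and 10.06 at LF3h, a 1.97-fold difference (log2 0.98 ± 0.09, SE, limma adjusted p = 2.4e-05). G0s2, an inhibitor of the triglyceride lipase ATGL, read 5.57 and 5.86 at HF3h, against 4.53 and 4.21 at LF3h (log2 difference 1.34, limma adjusted p = 3.2e-05). Cidec, which enlarges lipid droplets, read 9.36 and 9.30 at HF3h, against 8.57 and 8.72 at LF3h (0.68, limma adjusted p = 0.00075). For these droplet genes no array of HF3h overlapped with LF3h. They were the 3 members that passed among 26 measured genes of lipid droplets and lipolysis, and Pnpla2, which encodes ATGL, differed by -0.02.

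**Figure D2:**
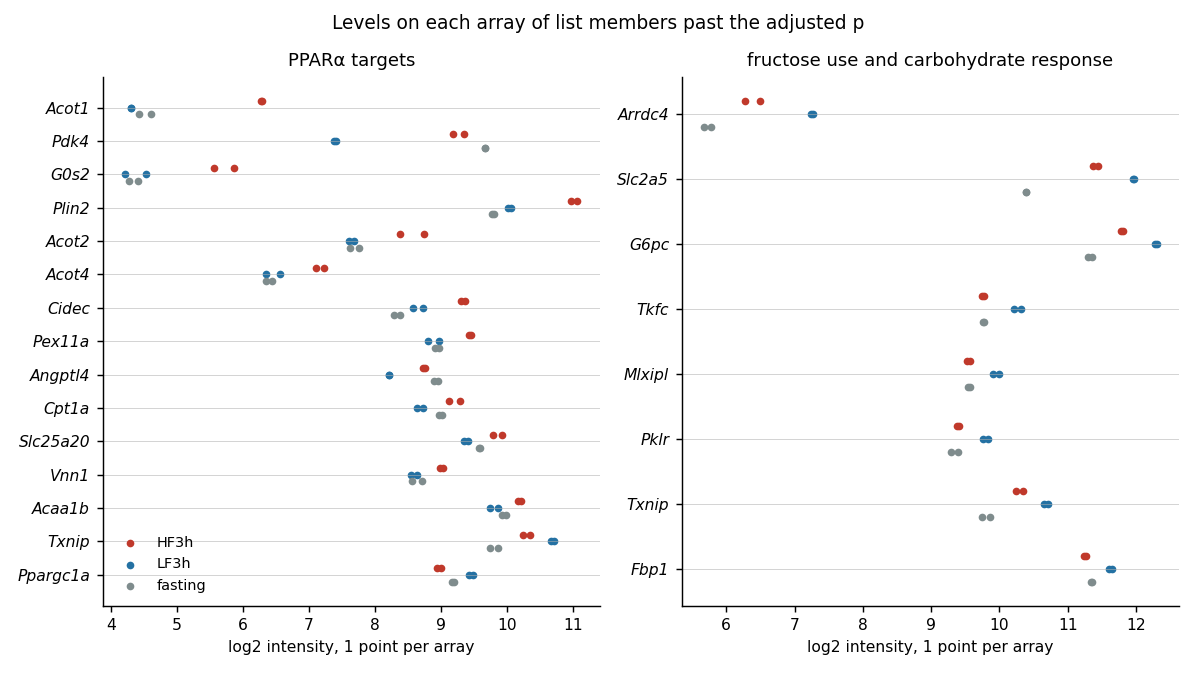
Log2 intensity on each array (1 point per array, 2 per pool) of the list members past the adjusted p, with HF3h in red above LF3h in blue and fasting in grey. The left panel holds 15 PPARα targets, where HF3h lay right of LF3h for 13, and the right panel 8 genes of fructose use and carbohydrate response, where HF3h lay left of LF3h for 8.

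The entry of fatty acids into mitochondria moved less. Cpt1a, the carnitine palmitoyltransferase that commits them to oxidation, read 9.28 and 9.11 at HF3h, against 8.64 and 8.73 at LF3h (log2 difference 0.51, limma adjusted p = 0.0066, passed in 2 of 4 refits). Slc25a20, the carrier of acylcarnitine across the inner membrane, read 9.92 and 9.79 at HF3h, against 9.35 and 9.41 at LF3h (0.48, limma adjusted p = 0.013, passed in 1 of 4 refits). These were the 2 members that passed among 25 of mitochondrial fatty acid oxidation, whose median difference was 0.03. Of the oxidation enzymes themselves, Acadm differed by -0.02, Acadl by 0.16, Hadha by 0.17 and Ehhadh by -0.25, and none of these passed. Of 32 peroxisomal genes 4 rose and 0 fell, with Pex11a, which divides peroxisomes, at 9.42 and 9.45 in HF3h, against 8.80 and 8.97 in LF3h (0.55, limma adjusted p = 0.0057, passed in 1 of 4 refits). None of 6 genes of ketone body metabolism passed, and their median was -0.20. The receptor gene Ppara itself read 8.22 and 8.11 at HF3h, against 8.17 and 8.27 at LF3h, and the groups overlapped (-0.06, limma adjusted p = 0.81). Its coactivator gene Ppargc1a went the other way, with 8.94 and 9.00 at HF3h, against 9.42 and 9.48 at LF3h (-0.48, limma adjusted p = 0.0093, passed in 2 of 4 refits).

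A PPAR response element, a direct repeat to which PPARα binds with RXR, was searched in RefSeq promoter windows (build GRCm38.p6) of 250 bases before to 50 after the gene start. A pair of AGGTCA copies with 1 base between them was sought on both strands with up to 2 mismatches, and 1268 of 32851 promoters held such a match (3.86%). Of the 15 PPARα targets that passed, 13 had a window and 3 held a match, namely Plin2, Acot4 and Slc25a20. The stretches around the matches of Plin2 (chr4:86670247-86670309, minus strand, match starting 225 bases before the gene start) and Acot4 (chr12:84038341-84038378, plus strand, 13 bases before) are printed from 5′ to 3′ along the gene with the match in capitals, since these were the matches before the start of a gene that rose.
Plin2: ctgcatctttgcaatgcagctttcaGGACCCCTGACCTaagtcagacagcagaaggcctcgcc
Acot4: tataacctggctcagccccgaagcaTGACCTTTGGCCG
Both matches lie on the strand opposite to the gene. A match describes the letters only, and binding was not measured.

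Several large rises lay outside the PPARα list. Mfsd2a, a carrier of lysophosphatidylcholine, read 9.44 and 9.45 at HF3h, against 7.93 and 7.98 at LF3h, a 2.81-fold difference (log2 1.49 ± 0.10, SE, limma adjusted p = 6.8e-07). Rab30, a small GTPase of the Golgi apparatus that stood on no list, read 11.09 and 10.97 at HF3h, against 9.12 and 9.16 at LF3h (3.71-fold, log2 1.89 ± 0.10, SE, limma adjusted p = 8.9e-08). Its fasting mean was 7.35, below every array of both meals, and its second probe set differed by 0.62. Chka, the choline kinase that opens phosphatidylcholine synthesis, was picked after its value was seen and read 10.76 and 10.72 at HF3h, against 9.79 and 9.83 at LF3h (0.93, limma adjusted p = 2.2e-05), with 0.80 and 1.12 at its other probe sets. For these genes the arrays of the meals lay far apart relative to the gap within a pool.

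Few genes of chylomicron assembly passed. Of 25 genes of apolipoproteins and chylomicron assembly 0 rose and 1 fell, the faller being Apoe at 8.50 and 8.49 in HF3h, against 8.85 and 9.00 in LF3h (-0.43, limma adjusted p = 0.048, passed in 0 of 4 refits). Apob, the structural protein of chylomicrons, differed by 0.05, and Mttp, which loads it with lipid, by 0.19. Of 20 genes of triglyceride synthesis 1 rose, Agpat2 (0.33, limma adjusted p = 0.045, passed in 0 of 4 refits), while Mogat2 and Dgat1 differed by 0.04 and 0.02. Of 23 genes of fatty acid uptake and activation 2 rose, the acyl-CoA synthetases Acsl3 (0.49, limma adjusted p = 0.018, passed in 0 of 4 refits) and Slc27a2 (0.44, limma adjusted p = 0.014, passed in 1). The other probe sets of Acsl3 differed by -0.06 to 0.38. Cd36, a fatty acid receptor and carrier, differed by -0.04.

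Genes of sugar use lay lower after the HF meal. Of 23 measured genes of fructose use and carbohydrate response 8 fell and 0 rose, and 3 of the 8 passed in each of the 4 refits. The list median was -0.12, against 0.01 over all genes and -0.06 over probe sets with a mean log2 value of at least 6. Slc2a5, the fructose carrier GLUT5, read 11.44 and 11.37 at HF3h, against 11.96 and 11.97 at LF3h (log2 -0.56 ± 0.08, SE, limma adjusted p = 0.0019). Arrdc4, an arrestin-like protein induced by sugar, read 6.49 and 6.27 at HF3h, against 7.26 and 7.25 at LF3h (-0.87 ± 0.09, SE, limma adjusted p = 9.7e-05). G6pc, glucose-6-phosphatase, read 11.81 and 11.77 at HF3h, against 12.30 and 12.27 at LF3h (-0.50, limma adjusted p = 0.0039). In all 3 genes both HF3h arrays lay between the fasting mean (10.39, 5.73 and 11.33 in the same order) and the LF3h arrays, so the level after the HF meal was above fasting but short of that after the LF meal.

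The other 5 fallers were smaller and less stable. Tkfc, which phosphorylates the fructose product glyceraldehyde, read 9.77 and 9.75 at HF3h, against 10.21 and 10.31 at LF3h (-0.50, limma adjusted p = 0.0057, passed in 1 of 4 refits). Mlxipl, which encodes ChREBP, read 9.52 and 9.57 at HF3h, against 9.91 and 10.00 at LF3h (-0.41, limma adjusted p = 0.035), and its partner Mlx differed by -0.08. Pklr, pyruvate kinase, differed by -0.40, Txnip, an arrestin-like brake on glucose uptake, by -0.39 and Fbp1, fructose-1,6-bisphosphatase, by -0.37. Mlxipl, Pklr, Txnip and Fbp1 each passed in 0 of 4 refits. Khk, the first enzyme of fructose breakdown, differed by -0.16, the glucose carriers Slc5a1 and Slc2a2 by -0.07 and -0.20, and none of these passed. Of 22 brush border digestion genes 0 passed.

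The carbohydrate response element that ChREBP binds, a pair of E boxes, was added to the search after the data had been seen. A pair of CACGTG copies with 5 bases between them, on both strands with up to 2 mismatches, occurred in 313 of 32851 promoter windows (0.953%), and in 2 of the 8 fallers, Pklr and Txnip. Both stretches are shown with the match in capitals, Pklr at chr3:89136428-89136494 (plus strand, 170 bases before the start) and Txnip at chr3:96557847-96557913 (plus strand, 85 bases before).
Pklr: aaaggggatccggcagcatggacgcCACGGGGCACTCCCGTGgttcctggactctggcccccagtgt
Txnip: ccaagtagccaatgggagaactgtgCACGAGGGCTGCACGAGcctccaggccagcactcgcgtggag
Each element reads as a match on either strand, and these too describe letters and not binding.

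The enzymes of lipogenesis split. Of 26 genes of fatty acid synthesis 2 rose and 4 fell. Srebf1, the transcription factor that drives this pathway, read 10.12 and 10.15 at HF3h, against 9.32 and 9.39 at LF3h (log2 0.78 ± 0.08, SE, limma adjusted p = 7.9e-05). Scd1, the stearoyl-CoA desaturase, read 7.12 and 7.23 at HF3h, against 5.78 and 5.71 at LF3h (1.43, limma adjusted p = 1.1e-06), but its other probe set differed by 0.32. Mid1ip1, an activator of acetyl-CoA carboxylase, read 7.65 and 7.79 at HF3h, against 8.65 and 8.74 at LF3h (-0.98 ± 0.09, SE, limma adjusted p = 4e-05). Scd2, a second desaturase, read 6.29 and 6.31 at HF3h, against 6.99 and 6.95 at LF3h (-0.67, limma adjusted p = 0.0039), with -0.36 to -0.30 at its other probe sets. Fasn, fatty acid synthase, differed by -0.45 (limma adjusted p = 0.047, passed in 0 of 4 refits), and Acly and Acaca by -0.31 and -0.12 without passing. The remaining faller was Mlxipl (-0.41, passed in 0 of 4 refits), given above. Thus Srebf1 stood higher and Mlxipl lower at HF3h, and the enzymes that passed stood on both sides of 0.

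Sterol genes had a median below 0. Of 28 genes of cholesterol synthesis 1 fell, Stard4, a sterol carrier (-0.42, limma adjusted p = 0.035, passed in 0 of 4 refits), and the median was -0.19. Idi1, Sqle, Fdft1 and Fdps differed by -0.53, -0.45, -0.42 and -0.35, and none of the 4 passed. Of 16 LXR targets 3 rose, Plin2, Srebf1 and Scd1, which stand on other lists too, and 1 fell, Apoe. Abca1, the cholesterol exporter that defines this response, differed by 0.27 (limma adjusted p = 0.17). Of 20 genes of FXR and bile acid metabolism 0 passed.

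Pyruvate and glucose output differed at single genes. Pck1, the entry enzyme of gluconeogenesis, read 6.69 and 6.84 at HF3h, against 5.84 and 5.94 at LF3h (0.87, limma adjusted p = 0.00039), with a fasting mean of 9.22, far above both meals. Its other probe sets differed by 0.01 to 0.92. Pdhb, a subunit of the pyruvate dehydrogenase that Pdk4 blocks, read 9.73 and 9.75 at HF3h, against 10.19 and 10.17 at LF3h (-0.44, limma adjusted p = 0.023, passed in 0 of 4 refits). Of 36 genes of gluconeogenesis, pyruvate and glycogen 2 rose and 3 fell, and of 25 glycolysis genes 0 rose and 1 fell. Of 66 genes of oxidative phosphorylation 0 passed, with 4 above 0. Their median was -0.10, against -0.06 over all probe sets with a mean log2 value of at least 6.

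Among genes of transcription regulators that the study examined, Ptf1a, which drives acinar genes of the pancreas, read 6.16 and 5.85 at HF3h, against 5.06 and 4.93 at LF3h (1.01, limma adjusted p = 0.014, passed in 1 of 4 refits), and Ppargc1a was lower as given above. The study inferred these regulators from their target genes and measured some of them as protein. It reported more PPARα protein 3 h after the HF meal than 3 h after the LF meal. For FOXO1, and as a trend for phosphorylated CREB1, it reported more protein in fasting mice than 3 h after the LF meal. Elsewhere it gives FOXO1 as higher in fed than in fasting mice. Those are comparisons with fasting and not between the meals. The values here are mRNA, a different measure. The next genes did not pass. Foxo1 differed by -0.02 (limma adjusted p = 0.94), Creb1 by -0.28 (limma adjusted p = 0.14), Nr5a2 by -0.20 (limma adjusted p = 0.36), Nr4a1 by 0.15 (limma adjusted p = 0.57) and Epas1 by -0.22 (limma adjusted p = 0.22). Rbpjl, named in the study beside Ptf1a, differed by 0.43 (limma adjusted p = 0.14). Smad3 differed by -0.32 (limma adjusted p = 0.064), Cebpb by -0.295 (limma adjusted p = 0.13) and Ahr by -0.44 (limma adjusted p = 0.067). Of 47 FOXO1 targets 4 rose (Pdk4, Pck1, Angptl4 and Irs1, the last in 1 of 4 refits) and 6 fell, among them Cited2, a coregulator that binds CBP and p300, at 7.91 and 7.95 in HF3h, against 8.72 and 8.77 in LF3h (-0.81, limma adjusted p = 0.00049). Hnf4g, a nuclear receptor of the gut epithelium, read 8.96 and 9.06 at HF3h, against 9.63 and 9.60 at LF3h (-0.61, limma adjusted p = 0.0025). Hlf, a transcription factor of the circadian output, read 7.40 and 7.54 at HF3h, against 8.25 and 8.27 at LF3h (-0.79, limma adjusted p = 0.00024, and -0.45 at its other probe set), the only 1 of 22 clock genes that passed.

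Ankrd37, an ankyrin repeat protein and HIF1 target, had the largest fall among genes outside the immunoglobulins. It read 6.21 and 6.21 at HF3h, against 7.49 and 7.48 at LF3h (2.42-fold lower, log2 -1.27 ± 0.10, SE, limma adjusted p = 3.1e-06), with a fasting mean of 5.89. It was the only 1 of 28 hypoxia genes that passed, and Hif1a differed by 0.21 (limma adjusted p = 0.29). The difference was -1.03 at 30 min and -1.29 at 1 h, and neither interaction with time was called (limma interaction adjusted p = 0.46 against 30 min and 0.98 against 1 h).

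Errfi1, Phlda1 and Dusp6, which answer growth factors, were higher at HF3h. They stood on no common list and were put together from the named genes. Errfi1 was listed under glucocorticoid response, Dusp6 under CREB1 targets and Phlda1 nowhere. Of 22 glucocorticoid response genes 3 rose (Pdk4, Errfi1 and Mt1) and 3 fell (Mt2, Fkbp5 and Tsc22d3). Errfi1, a feedback inhibitor of the EGF receptor, read 10.14 and 10.04 at HF3h, against 8.74 and 8.84 at LF3h (2.46-fold, log2 1.30 ± 0.09, SE, limma adjusted p = 1.1e-06). Phlda1, an early response gene, read 8.14 and 8.17 at HF3h, against 6.67 and 6.46 at LF3h (3.01-fold, log2 1.59 ± 0.10, SE, limma adjusted p = 8.8e-07), and its fasting mean of 7.93 lay near HF3h. Dusp6, the phosphatase that ends ERK signalling, read 10.67 and 10.66 at HF3h, against 9.98 and 9.99 at LF3h (0.68, limma adjusted p = 0.00049). The receptor's ligands were looked up after these values had been seen, so they are a description. Ereg, epiregulin, read 6.66 and 6.53 at HF3h, against 5.44 and 5.14 at LF3h (1.30, limma adjusted p = 2.7e-05). Hbegf, heparin-binding EGF, differed by 0.71 (limma adjusted p = 0.0015) and Tgfa by -0.22 (limma adjusted p = 0.34). The fasting means of Hbegf, 8.73, and of the early response gene Egr1, 7.75, lay above every array of both meals. That of Ereg, 4.68, lay below them. Egf itself lay in the dim range on every array, at 3.94 and 4.03 in HF3h, against 3.44 and 3.38 in LF3h (0.58, limma adjusted p = 0.0024). Looked up with them, Epha2, an ephrin receptor, differed by 0.50 (limma adjusted p = 0.02, passed in 0 of 4 refits), and Nab2, a corepressor of EGR1, by -0.64 (limma adjusted p = 0.0056, passed in 1). Of 40 CREB1 targets and immediate early genes 4 rose (Maff, Dusp6, Egr1 and Dusp5) and 1 fell, and of these 5 Dusp6 alone passed in each of the 4 refits.

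Of 30 genes of the ATF4 amino acid stress response 5 rose and 1 fell, and 2 of the rises, Nupr1 and Slc7a5, passed in each of the 4 refits. Slc7a5, a carrier of large neutral amino acids, read 5.92 and 5.78 at HF3h, against 5.27 and 5.19 at LF3h (0.62, limma adjusted p = 0.0018). Asns, asparagine synthetase, differed by 0.52 (limma adjusted p = 0.0093, passed in 1 of 4 refits), and Slc38a2, a carrier of neutral amino acids, by -0.48 (limma adjusted p = 0.021, passed in 1). Nupr1 also stood on the acinar list described below, and of 44 genes of ER chaperones and the unfolded protein response the 4 that rose included Pdia2 and Bhlha15 of that list, Bhlha15 in 1 of 4 refits. The share of the acinar signal in these counts was not tested. Of 22 tRNA synthetases, 34 heat shock genes and 51 genes of ribosome biogenesis 0 passed.

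For the uptake of metals, Slc11a2, the iron carrier DMT1, read 8.34 and 8.26 at HF3h, against 8.78 and 8.82 at LF3h (-0.50, limma adjusted p = 0.0053, passed in 2 of 4 refits), and both lay above the fasting mean of 7.05. Its other probe sets differed by -0.40 to -0.04. Of 23 measured genes of iron, zinc and calcium absorption 1 rose, Mt1, and 3 fell, Slc11a2, Tfrc and Mt2. None of them passed in each of the 4 refits. Leap2, a peptide that blocks the ghrelin receptor, was picked after its value was seen and read 12.31 and 12.30 at HF3h, against 11.84 and 11.85 at LF3h (0.46, limma adjusted p = 0.0095, passed in 0 of 4 refits), with a fasting mean of 10.96. Of 24 enteroendocrine genes 0 passed, and the hormone genes Cck, Gip and Sct differed by -0.18, -0.01 and -0.13.

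**Figure D3:**
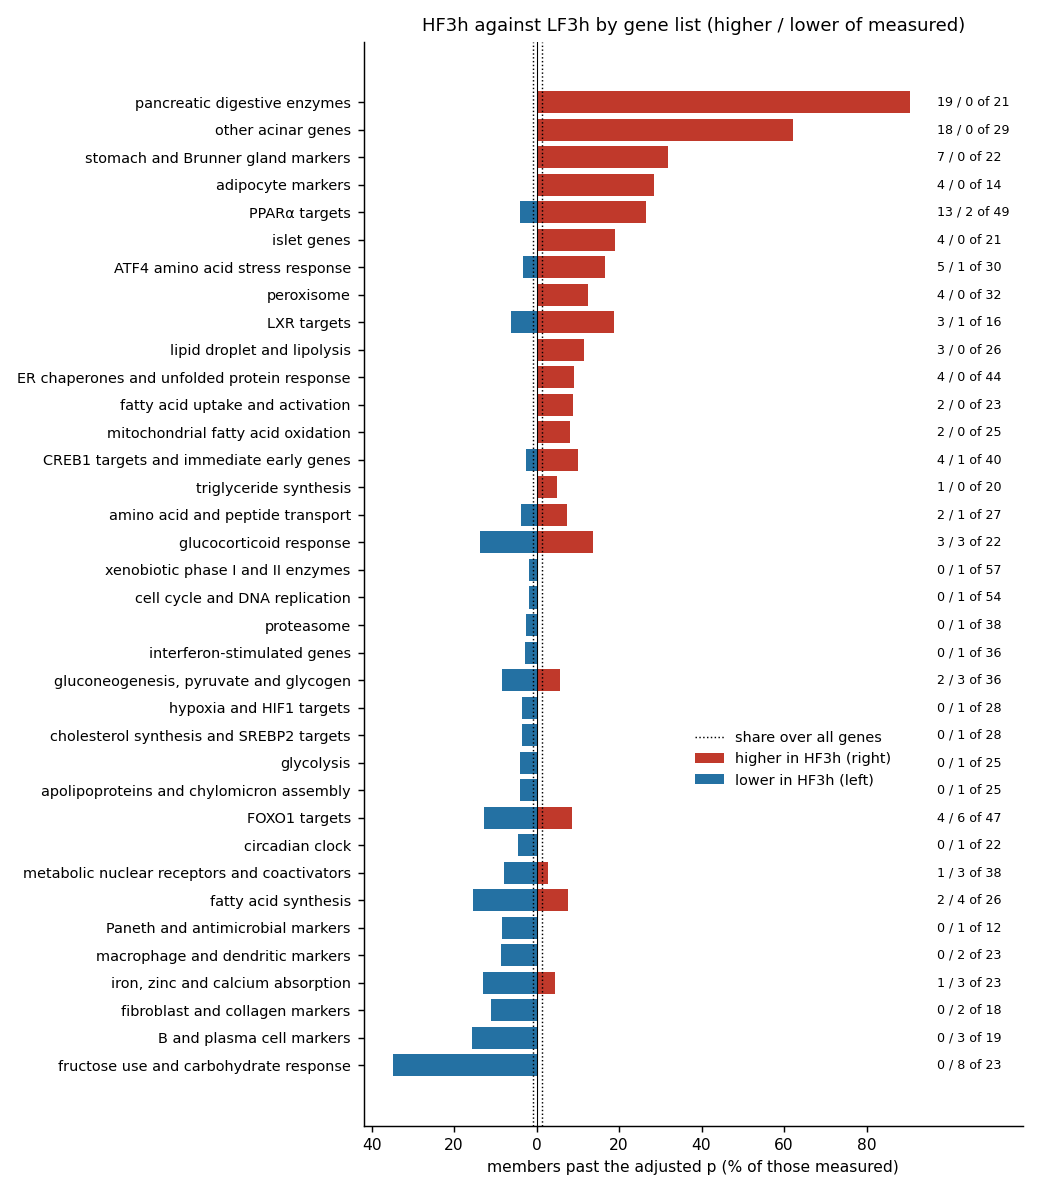
Share of the measured members of each gene list that passed the adjusted p, in percent, with members higher at HF3h to the right and lower to the left, for the lists with at least 1 such member, and the counts (higher / lower of measured) at the right edge. The dotted lines mark the shares over all genes, 1.19% higher and 1.01% lower, and the pancreatic enzymes (19 of 21 higher) and fructose use and carbohydrate response (8 of 23 lower) lay farthest out.

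Large differences also belonged to genes on lists of other tissues, Gkn3, Tff2 and Ins2 among them. In bulk tissue, more cells of a type and more RNA per cell cannot be told apart. Of 21 pancreatic digestive enzymes 19 rose and 0 fell, with a median of 0.94, and 18 of the 19 passed in each of the 4 refits. Prss3, a trypsin, read 6.72 and 6.90 at HF3h, against 4.46 and 4.46 at LF3h (log2 2.35 ± 0.11, SE, limma adjusted p = 2.8e-08). Cel, the bile-salt-activated lipase, read 13.10 and 13.11 at HF3h, against 11.91 and 11.97 at LF3h (2.24-fold, log2 1.17, limma adjusted p = 1.6e-06). Clps, colipase, read 12.91 and 12.85 at HF3h, against 11.61 and 11.56 at LF3h (2.46-fold, limma adjusted p = 5e-07). Proteases were higher at HF3h too, as Ctrb1, chymotrypsinogen, differed by 0.75 (limma adjusted p = 0.00026). Cel, Clps and Ctrb1 were at least as high 1 h after the LF meal, with means of 13.19, 13.03 and 13.49. Their fasting means, 12.15, 12.07 and 12.96, lay between HF3h and LF3h. The 2 members that did not pass were Zg16 (0.02) and Dnase1 (0.02), which intestinal cells also make. Summed on the linear scale the list reached 161508 and 161238 on the HF3h arrays, against 93712 and 94458 on the LF3h arrays.

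Of 29 other acinar genes 18 rose and 0 fell, with a median of 0.79, among them Cuzd1, a zymogen granule protein, at 10.18 and 10.16 in HF3h, against 8.34 and 8.41 in LF3h (3.47-fold, limma adjusted p = 4.4e-08). Cckar, the receptor through which cholecystokinin acts on acini, read 6.62 and 6.54 at HF3h, against 4.91 and 4.75 at LF3h (1.75, limma adjusted p = 4.4e-07). Reg1, Spink1 and Reg3a, which the gut also makes, differed by -0.03, 0.01 and -0.13. The summed list stood at 24197 and 23580 at HF3h, against 19645 and 20164 at LF3h. Several trypsin, kallikrein and amylase genes have near-identical copies, and their single values are uncertain for that reason.

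Of 21 islet genes 4 rose and 0 fell with a median of 0.06, namely Ins2, Iapp, Ttr and Ppy. Ins2, insulin, read 10.14 and 10.13 at HF3h, against 6.81 and 7.07 at LF3h (9.11-fold, log2 3.19 ± 0.09, SE, limma adjusted p = 2.7e-10). Iapp, amylin of the beta cell, read 8.37 and 8.18 at HF3h, against 6.10 and 6.15 at LF3h (2.15, limma adjusted p = 1.1e-06), with 0.79 to 2.18 at its other probe sets. The fasting means, 8.99 for Ins2 and 7.34 for Iapp, lay between the meals. The other 17 did not pass. Among them were genes that gut endocrine cells also express, with Sst at -0.13, Chgb at -0.07, Gcg at -0.04 and Chga at 0.15. Pdx1 had the lowest value of the list, at -0.42 (limma adjusted p = 0.12). Summed, the list stood at 8143 and 7901 at HF3h, against 7525 and 7555 at LF3h.

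Of 22 stomach and Brunner gland markers 7 rose and 0 fell, and 6 of the 7 passed in each of the 4 refits. Most of them mark mucous cells of the stomach. Gkn3, a gastrokine, read 10.78 and 10.91 at HF3h, against 5.51 and 5.04 at LF3h (log2 5.57 ± 0.17, SE, limma adjusted p = 2.7e-10), the largest difference of any gene. Tff2, a trefoil peptide of mucous neck cells and Brunner glands, read 11.52 and 11.45 at HF3h, against 8.14 and 8.19 at LF3h (10.02-fold, log2 3.32 ± 0.08, SE, limma adjusted p = 7e-11). Gkn2 and Gkn1 differed by 2.28 (limma adjusted p = 3e-09) and 2.07 (limma adjusted p = 1.2e-07), and Tff1 by 1.37 (limma adjusted p = 6.3e-07). High levels of these genes were not particular to HF3h, since they were also high 30 min after either meal. The 30 min means after LF and HF were 10.80 and 11.61 for Gkn3 and 11.55 and 12.19 for Tff2. They were 11.29 and 11.20 for Gkn2, 9.60 and 10.07 for Gkn1, and 11.30 and 11.20 for Tff1. The fasting means of Gkn3 and Tff2 were 5.04 and 8.51. The markers of acid-secreting and chief cells did not pass, with Atp4a at -0.07, Atp4b at 0.07, Cblif at 0.13 and Pga5 at -0.12. The summed list stood at 8086 and 7984 at HF3h, against 2137 and 2155 at LF3h. 2310057J18Rik, on no list, read 7.27 and 7.31 at HF3h, against 3.81 and 3.64 at LF3h (3.56, limma adjusted p = 8.9e-10). Its 30 min means after LF and HF were 7.94 and 8.66.

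**Figure D4:**
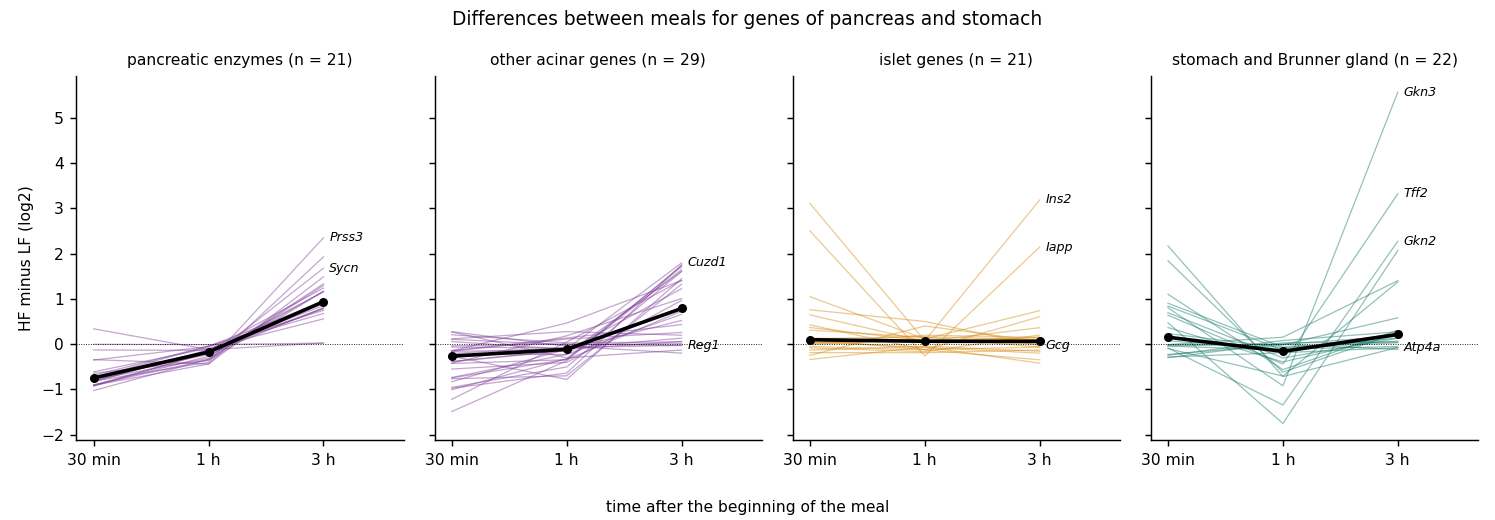
Difference HF minus LF (log2) at the 3 times after the meal began (30 min, 1 h, 3 h, evenly spaced and not to scale), 1 thin line per gene and the median in black, for pancreatic enzymes, other acinar genes, islet genes and stomach and Brunner gland markers. The median of the enzymes was below 0 at 30 min and 0.94 at 3 h, Ins2 stood at 3.11 at 30 min, 0.07 at 1 h and 3.19 at 3 h, and Gkn3 reached 5.57 at 3 h only.

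Adipocyte markers were counted because fat cells share the droplet genes. Of 14 measured 4 rose, Adipoq, Cidec, Fabp4 and Lpl, and the summed list stood at 1595 and 1538 at HF3h, against 1119 and 1177 at LF3h. Adipoq, adiponectin, which defines the fat cell, read 4.07 and 4.09 at HF3h, against 2.90 and 2.86 at LF3h (1.20, limma adjusted p = 1.9e-05), in the dim range on every array, and 1 of the 4 probe sets of Car3 differed by 2.65 (limma adjusted p = 3.2e-08), while the brightest differed by 0.33. Fabp4 passed in 2 of 4 refits and Lpl in 1. Lep, Plin4 and Retn differed by 0.09, 0.22 and 0.36 without passing. The part of fat cells in the differences of Plin2, Cidec and G0s2 was not tested.

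Without the genes of the pancreatic, islet, stomach and adipocyte lists, an alternative added after the data were seen, 32 of the 80 higher probe sets remained, 14 of them with no single gene in the annotation. Acot1, Pdk4, G0s2, Mfsd2a, Rab30, Scd1, Errfi1 and Phlda1 stood outside these lists.

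Markers of the absorptive epithelium did not pass. Of 18 enterocyte markers 0 passed, with a median of -0.01 and a summed level of 131369 and 129616 at HF3h, against 130841 and 132247 at LF3h. Fabp1, Fabp2, Vil1, Alpi and Apoa4, which mark the absorptive cell, differed by 0.09, 0.02, -0.04, -0.07 and -0.01 and were bright on all arrays. Goblet, tuft, stem, smooth muscle, endothelial and T cell lists had 0 members past the adjusted p, and the Paneth list had 1 lower, Lyz1 (-0.36, limma adjusted p = 0.04, passed in 0 of 4 refits). Of 54 cell cycle genes 1 fell, Rrm2, a subunit of ribonucleotide reductase (-0.61, limma adjusted p = 0.0053, passed in 1 of 4 refits), and the median was -0.14. Among other lists, 1 of 57 xenobiotic enzymes fell (Akr1c14, -0.60, passed in 0 of 4 refits), 1 of 38 proteasome genes (Psma4, -0.41, passed in 0) and 1 of 36 interferon-stimulated genes (Iigp1, -0.51, passed in 1), and 0 of 27 NRF2 targets and 0 of 32 ABC transporters passed.

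B cell, macrophage and fibroblast markers had medians below 0, as did all probe sets with a mean log2 value of at least 6 (-0.06). Of 19 B and plasma cell markers 3 fell, Ms4a1 (-0.60), Mzb1 (-0.44) and Iglv1 (-0.37), and the summed list stood at 22810 and 22623 at HF3h, against 26787 and 26781 at LF3h. Of 23 macrophage and dendritic markers 2 fell, C1qa (-0.44) and Lyz2 (-0.41), 0 lay above 0, and the median was -0.11. Of 18 fibroblast and collagen markers 2 fell, Col3a1 and Col6a3 (-0.45 each), with a median of -0.23. None of these 7 genes passed in more than 1 of the 4 refits. Igkv6-20, an immunoglobulin light chain segment, read 5.13 and 4.96 at HF3h, against 6.43 and 6.48 at LF3h (-1.41, limma adjusted p = 0.0019), and such segments belong to a large family whose members share sequence.

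Whether the difference between the meals at 3 h differed from that at the earlier times was tested as an interaction. Against 1 h, 231 probe sets differed (0.513%), 182 upward (0.404%) and 49 downward (0.109%). Against 30 min 298 differed (0.662%), 178 upward (0.395%) and 120 downward (0.266%). Fewer genes separated the meals earlier, namely 54 with higher levels in the HF pool (0.297%) and 46 with lower levels (0.253%) at 30 min, and 12 with higher (0.066%) and 29 with lower levels (0.159%) at 1 h. Across all probe sets the differences at 3 h correlated with those at 1 h at 0.14 and with those at 30 min at -0.01, over arrays that none of the comparisons share, as a description.

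The members described above had these courses. Plin2 differed by -0.04 at 30 min, 0.07 at 1 h and 0.98 at 3 h, and the 3 h difference exceeded both earlier ones (limma interaction adjusted p = 0.00069 against 30 min and 0.0022 against 1 h). Mfsd2a differed by -0.06, 0.34 and 1.49 at the same times (interaction adjusted p = 2e-05 against 30 min and 0.0005 against 1 h by limma). Pdk4 differed by 0.35, 0.48 and 1.87, Acot1 by 0.68, 0.07 and 1.97 and Srebf1 by -0.10, 0.03 and 0.78. Slc2a5 differed by -0.59 at 30 min, -0.79 at 1 h and -0.56 at 3 h, and no interaction was called (limma interaction adjusted p = 0.94 against 30 min and 0.53 against 1 h). G6pc, at -0.23, -0.55 and -0.50, and Arrdc4, at -0.44, -0.63 and -0.87, had no interaction call either. Both Acot1 at 30 min (limma adjusted p = 0.024) and Pdk4 at 1 h (limma adjusted p = 0.034) had already passed between the meals. Of the 49 PPARα targets 4 were higher after the HF meal at 30 min, 1 at 1 h and 13 at 3 h, and 0 were lower at the 2 earlier times. Scd1 changed sign between times, at 0.67, -1.66 and 1.43.

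**Figure D5:**
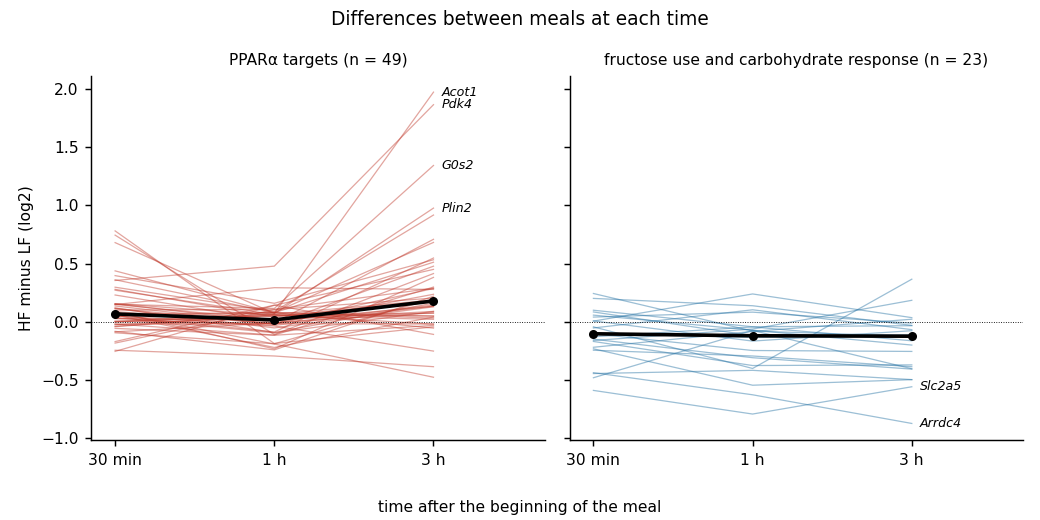
Difference HF minus LF (log2) at the 3 times after the meal began (30 min, 1 h, 3 h, evenly spaced and not to scale), 1 thin line per gene and the median in black. PPARα targets such as Acot1 (0.68, 0.07 and 1.97) and Pdk4 (0.35, 0.48 and 1.87) stood farthest from 0 at 3 h, and Slc2a5 lay below 0 at each time, at -0.59, -0.79 and -0.56.

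Pancreatic and islet genes had different courses. Of the 21 enzymes 16 were lower after the HF meal at 30 min, 0 passed in either direction at 1 h, and 19 were higher at 3 h. Cel, for example, differed by -0.91, -0.27 and 1.17, and its 3 h difference exceeded both others (limma interaction adjusted p = 1.8e-07 against 30 min and 1.1e-05 against 1 h). Ins2 differed by 3.11, 0.07 and 3.19, with no interaction called against 30 min (limma interaction adjusted p = 0.85) and 1 against 1 h (limma interaction adjusted p = 1.9e-08). Of the stomach list 7 were higher at 30 min, 4 lower at 1 h and 7 higher at 3 h. Atp4a, the acid pump, differed by 2.17, -0.72 and -0.07, and Gkn3 by 0.80, -0.92 and 5.57. Tff2 was the 1 member that passed at both 30 min and 3 h.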

How the data were processed

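The 14 arrays were hybridized with 7 RNA pools, 2 technical replicates each. The deposited values were log2 intensities that the authors had background-corrected and normalized by RMA, and the log base is inferred from that method. They were used without further scaling. Of 45101 probe sets 64 controls were set aside. The platform annotation, matched by Entrez ID for 34741 probe sets, gave 1 gene for 34945, several for 932 and none for 9160, and the last 2 kinds are unnamed here.

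A model with 1 mean per pool was fitted to all 14 arrays with limma 3.58.1 in R 4.3.3, which left 7 residual degrees of freedom and gave a median SE of 0.11 for the comparison. The number of arrays limits the precision. P-values were two-sided and adjusted by Benjamini-Hochberg over 45037 probe sets. The procedure was tested on simulated data. Figures were drawn with matplotlib 3.10.9 in Python 3.11.15.

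The members and the 54 gene lists (1459 of 1589 entries measured) were chosen with earlier results of these data known. The genes named were the 25 largest rises and 15 largest falls whose arrays did not overlap, up to 6 members per list, list members that define a pathway and genes the paper names, except where the text says that a gene was chosen after its value was seen. The same numbers on arrays of different pools did not pair them (correlations of deviations from -0.187 to 0.151). Alternatives changed the arrays fitted, variance model, scaling, filter, thresholds and probe sets.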

Additional observations from a re-analysis of the deposited data

Results flagged for a closer look

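Of the 40 genes with the largest rises and falls at 3 h, 26 had a difference between the meals that differed from those at both 30 min and 1 h by an interaction term in limma (highest adjusted p 0.0059), 23 rises and 3 falls. Over all probe sets 0.513% differed from 1 h and 0.662% from 30 min. The 40 genes were chosen by the size of the 3 h difference, which enters the interaction too, so their count is a description. The values below are the log2 difference HF minus LF at 3 h minus that at 1 h. Among genes of stomach and the unlisted 2310057J18Rik they were Gkn3 (6.49), 2310057J18Rik (3.74), Tff2 (3.76), Gkn2 (3.62) and Gkn1 (3.82). For the PPARα targets they were Acot1 (1.90) and Pdk4 (1.39), and for other genes outside the lists of other tissues Rab30 (1.70), Mfsd2a (1.15) and Phlda1 (1.53). Among pancreatic genes and Nucb2, the precursor of nesfatin, they were Prss3 (2.75), Pla2g1b (2.37), Cuzd1 (1.90), Cckar (2.39), Tmed6 (2.10), Gp2 (2.04), Klk1b5 (2.12), Sycn (1.99), Pdia2 (1.99), Slc38a5 (1.84), Serpini2 (2.11), Nucb2 (1.81) and Klk1 (1.93). Among the falls they were Igkv6-20 (-2.30), another kappa light chain segment (-1.35) and Cited2 (-0.92). Ins2 and Iapp were the 2 of the 25 rises without such a difference from both times, and their differences at 30 min were 3.11 and 2.50.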

How the results depend on the processing

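Among 144 named genes past the adjusted p, 132 passed with the replicate number as a block, 140 with a robust variance, 144 with a variance trend, 137 with either other scaling and 89 when the 4 arrays of the comparison were fitted alone. None of these 144 genes changed direction under the alternatives run. The balance at the adjusted p alone did, since more probe sets were lower than higher in the fit reported (388 higher and 430 lower), while more were higher after quantile normalization (436 and 341), with the 4 arrays alone (203 and 131) and in each refit without 1 array (182 and 89, 243 and 140, 211 and 147, 185 and 58). With the replicate block, which the labels' numbers allow but the arrays do not bear out as a pairing, 80 probe sets were called higher and 8 lower at 2-fold, and 329 and 342 at the adjusted p alone. A minimum mean log2 value of 6 gave 533 higher and 1221 lower (30.4% higher, against 47.4% without it), 5 lower at 2-fold, and 484 and 991 interactions against 1 h and 30 min. A variance trend gave 692 higher and 1288 lower. Quantile normalization gave 56.1% higher and 5 lower at 2-fold, and median centring 37.3% higher. Without probe sets that can match several transcripts (suffixes _s, _x and _a) 51 were higher at 2-fold, and 246 higher and 269 lower at the adjusted p. A 1.5-fold minimum gave 200 higher and 119 lower. Without the pancreatic, islet, stomach and adipocyte genes 32 were higher at 2-fold. Leaving out 1 array at a time gave 82 to 84 higher and 5 to 11 lower at 2-fold, 182 to 243 higher and 58 to 147 lower at the adjusted p, and 146 to 164 and 146 to 186 interactions against 1 h and 30 min, where the lone array was assumed to vary like the other pools. The number of 2-fold rises thus changed little when an array was left out, while the number at the adjusted p alone fell. Values near the dim end of the scale are compressed by background, and 1 pool per meal leaves the spread between mice unmeasured.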

Other observations

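A few genes that belong to none of the lists differed as well. They were chosen with their values in view and are given as a description. Of the 17 villus signalling genes looked up, 8 passed the adjusted p by limma as lower at HF3h and 0 as higher. Over all genes 1.01% were lower and 1.19% higher, but the 17 were picked by value, so their count reflects the picking. Among the 8 were Bmp4 (-0.64), Bmp5 (-0.66), Id1 (-0.41), Id2 (-0.63) and Id3 (-0.48), each in 0 of the 4 refits. Tcf21 (-0.90), the largest fall of the 8, and Fzd7 (-0.58) were also among them, with -0.57 and 0.22 at their other probe sets. Neither passed in each of the 4 refits. Those that did not pass the adjusted p were Bmp2 (-0.51), Ihh (-0.39), Foxf1 (-0.34), Gli1 (-0.16), Hhip (-0.06), Bmp7 (-0.01), Id4 (0.01), Foxl1 (0.01) and Shh (0.29). Ptch1, the Hedgehog receptor, read 6.79 and 6.67 at HF3h, against 7.57 and 7.57 at LF3h, but its other probe sets differed by 0.10 to 0.20, and it passed in 2 of the 4 refits. Of the tight junction genes Cldn2 (0.48), Cldn4 (0.46) and Cldn8 (0.51) passed, in 0, 1 and 0 of the 4 refits, and Cldn3 (-0.12), Cldn7 (-0.06) and Cldn15 (-0.28) did not. Cldn8 lay in the dim range on every array, at 3.53 and 3.63 in HF3h, against 3.10 and 3.04 in LF3h. The other probe set of Cldn2 differed by 0.18. Clu, clusterin, read 9.78 and 9.87 at HF3h, against 8.89 and 8.96 at LF3h (0.90, limma adjusted p = 4.8e-05).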
